A study of Mus musculus with 10 samples.

Results

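The nuclear genes of oxidative phosphorylation are described here during temperature shifts of NIH3T3 cells, a mouse fibroblast line. They were taken by gene symbol from the tables of exon and intron reads. The symbol patterns cover the subunits of NADH dehydrogenase (complex I), succinate dehydrogenase (complex II), the cytochrome bc1 complex (complex III), cytochrome c oxidase (complex IV) and ATP synthase (complex V). The tables list 38087 genes, of which 86 matched, and the 75 that averaged at least 100 exon reads per column are the members. Complex I has 34 of them, complex II 4, complex III 9, complex IV 12 and complex V 15. The other is Atp5sl (Dmac2 in GENCODE M21), which matches the ATP synthase pattern but codes for an assembly factor of complex I.

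All cells were wild type. After 4 h at 37 °C they were held for 16 h at 38 °C and moved to 33 °C (the downshift), or held for 16 h at 33 °C and moved to 38 °C (the upshift). Total RNA was taken 0, 1, 3, 6 and 9 h after the move, with 1 sample per time in each course, which makes 10 samples. The title of the upshift sample at 0 h is mistyped, and its description places it. Every sample has 2 complete columns of exon and of intron counts, in numbered column series (downshift 5 and 11, upshift 2 and 13). What the numbers mean, and whether the columns are separate cultures, is not in the labels. Exon columns held 22403625 to 48004854 reads and intron columns 15313374 to 25233405.

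Oxidative phosphorylation makes most of the ATP of a resting cell. Complexes I and II pass electrons to ubiquinone, complex III passes them to cytochrome c and complex IV to oxygen, while protons are pumped out of the mitochondrial matrix, and complex V makes ATP as they return. Complex II is coded wholly in the nucleus, and the other complexes also hold subunits coded by mitochondrial DNA. The 13 mitochondrial genes of such subunits were sought by symbol, none was found in the tables, and they were not analysed.

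The labelled cell type was checked against marker genes. The 8 fibroblast markers summed to 2608 to 2804 RPKM (exon reads per kilobase and per library size) in downshift samples and to 3284 to 3949 in upshift samples, with Vim and Col1a1 among them. The fibroblast sums of the courses did not overlap. Markers of other cell types were near 0, with sums of at most 0.598 RPKM for epithelial, 1.81 for immune, 0.808 for muscle, 1.28 for endothelial and 0.00465 for neuronal genes. Among them, Cd3e and Snap25 were listed at 0 in every sample. The part of the fibroblast marker sums in the results below was not tested.

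The members were abundant, and their means of 2 columns varied less over the samples than those of all genes tested. Their median level over the 10 samples was 48.2 RPKM, against 8.63 RPKM for all 10171 genes tested. The standard deviation of log2 RPKM over the 10 samples had a median of 0.093 for members, against 0.18 for all genes tested. A member's highest sample was in the median 1.21 times its lowest, against 1.45 times for all genes tested. The sets were not matched for level, and what this does to the spread was not tested. Opposite changes in the 2 columns of a sample cancel in part in their mean. After the upshift the members' median change was 0.22 in series 2 and -0.13 in series 13. The summed level of the 75 members was 6355, 6354, 6334, 6724 and 6827 RPKM at 0, 1, 3, 6 and 9 h of the downshift, and 5838, 6238, 6312, 6039 and 6045 RPKM at those times of the upshift. Every downshift sample was above every upshift sample in this sum, the closest being the 3 h samples, but the sums overlapped within each pair of series. They were 6476 to 7412 RPKM in the downshift and 6028 to 7216 RPKM in the upshift within series 5 and 2, and 5563 to 6424 RPKM and 5112 to 5649 RPKM within series 11 and 13. In bulk RNA, fewer cells of a type and less RNA per cell cannot be told apart.

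Levels differed between complexes and far more within them. The median member had 37.3 RPKM in complex I, 43.4 in complex II, 70.4 in complex III, 100.2 in complex IV and 88.9 in complex V. Cox8a, a small subunit of complex IV, had the highest level, with 559 RPKM (495 to 645 over samples). Atp5b, the catalytic beta subunit of ATP synthase, followed with 548 RPKM (486 to 597), and these ranges overlap. In complex III the highest was Uqcr11, a small accessory subunit, with 230.5 RPKM, and the lowest Uqcrc1, a core protein, with 43.4. Complex II ranged between 136 RPKM for Sdhd and 19.4 for Sdhc, which code for its membrane anchors. Complex I ranged between 136 RPKM for Ndufb9 and 2.28 for Ndufb2, both accessory subunits of its membrane arm.

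**Figure D1:**
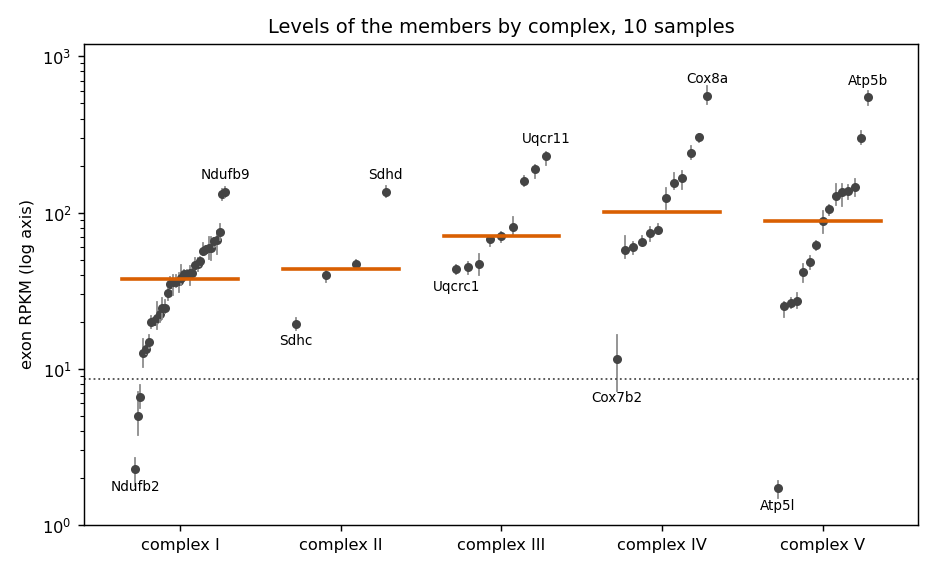
Exon level of each member (RPKM, log axis) by complex, with points at the mean of 10 samples, thin bars from the lowest to the highest sample, orange lines at the median member and a dotted line at the median of all genes tested (8.63 RPKM). Most members lie above the dotted line, the bars are short, and the spread within a complex exceeds that between complex medians.

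Exon length and read assignment bear on some of these values. RPKM here divides by the union of all annotated exons, which is long for Atp5l (6443 bases), Ndufb2 (5628), Ndufab1 (6883) and Atp5g1 (4912). Atp5l, a subunit of the membrane part of ATP synthase with 1.71 RPKM, was the lowest member. It has 10 near-identical genes (at least 95% identity over 100 bases), 9 of them pseudogenes, and the 6 in the tables together averaged 90.7 reads, against 391.2 for Atp5l. In all 21 members have such a pseudogene. The pseudogene Gm6969 averaged 735.2 reads, against 3059.7 for its parent Cox7a2l, and Gm5436 averaged 172.6, against 6365.1 for its parent Atp5o. Ndufc1 has alignments of this kind (at least 100 bases) with 4 genes that are not pseudogenes. Together these genes averaged 10833.2 reads, of which Dynll1 had 8200.7, against 1066.8 for Ndufc1. They need not be copies of Ndufc1, since an alignment can cover a small part of a gene. How many of their reads fall in it was not examined. Exon bases were shared with another gene in 26 members, on the opposite strand in 23 and on the same strand in 5. Values of these genes are uncertain to the extent that reads were split, since no source used here gives the counting rule.

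The 11 matching genes below the minimum of reads were mostly isoforms of other tissues. Cox6a2 averaged 10.5 reads, Cox7a1 1.6, Cox4i2 1.2, Cox6b2 0.1, and Cox8b and Cox8c 0.0. Other genes of the Cox6a, Cox6b and Cox7a families were high. Cox6a1 had 303 RPKM, Cox6b1 242, Cox7a2 167 and the related supercomplex factor Cox7a2l 57.5. Ndufa4, a subunit of complex IV despite its name, had 123 RPKM, while its paralogue Ndufa4l2 reached at most 0.102. Ndufa13 and Cox4i1, which code for ubiquitous subunits of complexes I and IV, were listed at 0 in all 22 exon columns. Ndufs5 averaged 48.5 reads, Atp5s 21.9 and the processed pseudogene Atp5l2 3.1. Just inside the minimum stood Cox7b2 with 213.1 reads and Atp5l with 391.2. The level of Cox7b2 depended on the column series. It was 11.2 to 31.6 RPKM in series 2 and 5 and 0.740 to 3.64 RPKM in series 11 and 13.

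To ask in which members the change differs between the shifts, the change over 9 h was fitted in each course as a line on log2 time. The upshift change was taken from the downshift change (edgeR quasi-likelihood test, Benjamini-Hochberg adjustment over all genes tested). A difference does not require opposite changes, since a change in 1 course can be enough. A call means an adjusted p of at most 0.05. Each time has 1 sample, so the p-values measure scatter around the lines and not the spread between replicate cultures.

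Of the 75 members, 14 were called higher for this difference and 6 lower, 26.7% in all, while 46.8% of all genes tested were called (24.8% higher and 22.1% lower). The changes were small. In 2 members the difference was past 1.5-fold, against 36% of all genes tested. The median difference of the members was 0.053 on the log2 scale and the median of its absolute size 0.17, against 0.026 and 0.42 for all genes tested. The higher group held 6 members of complex I, 2 of complex III, 2 of complex IV, 3 of complex V and Atp5sl. The lower group held 4 members of complex I, 1 of complex II and 1 of complex III. The 55 members not called lay between -0.27 for Atp5g1 and 0.32 for Ndufv2.

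These counts depended on single samples and on the column series. Without the downshift sample at 0 h or at 9 h, 5 and 7 members were called higher, and without the upshift sample at 1, 6 or 9 h, 8, 9 and 7. Without the upshift sample at 0 h, 3 were called lower. In these fits 36.2% to 44.9% of all genes tested were called. In the pair of series 2 and 5 alone 0 members were called higher and 5 lower, against 37.3% of all genes tested (1829 higher and 1899 lower). In series 11 and 13 alone 12 were called higher and 1 lower, against 37.9% (1989 higher and 1901 lower). All 20 called members kept their sign in both pairs of series. A step between 0 h and the mean of 3, 6 and 9 h called 0 higher and 3 lower, against 24.7% of all genes tested.

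**Figure D2:**
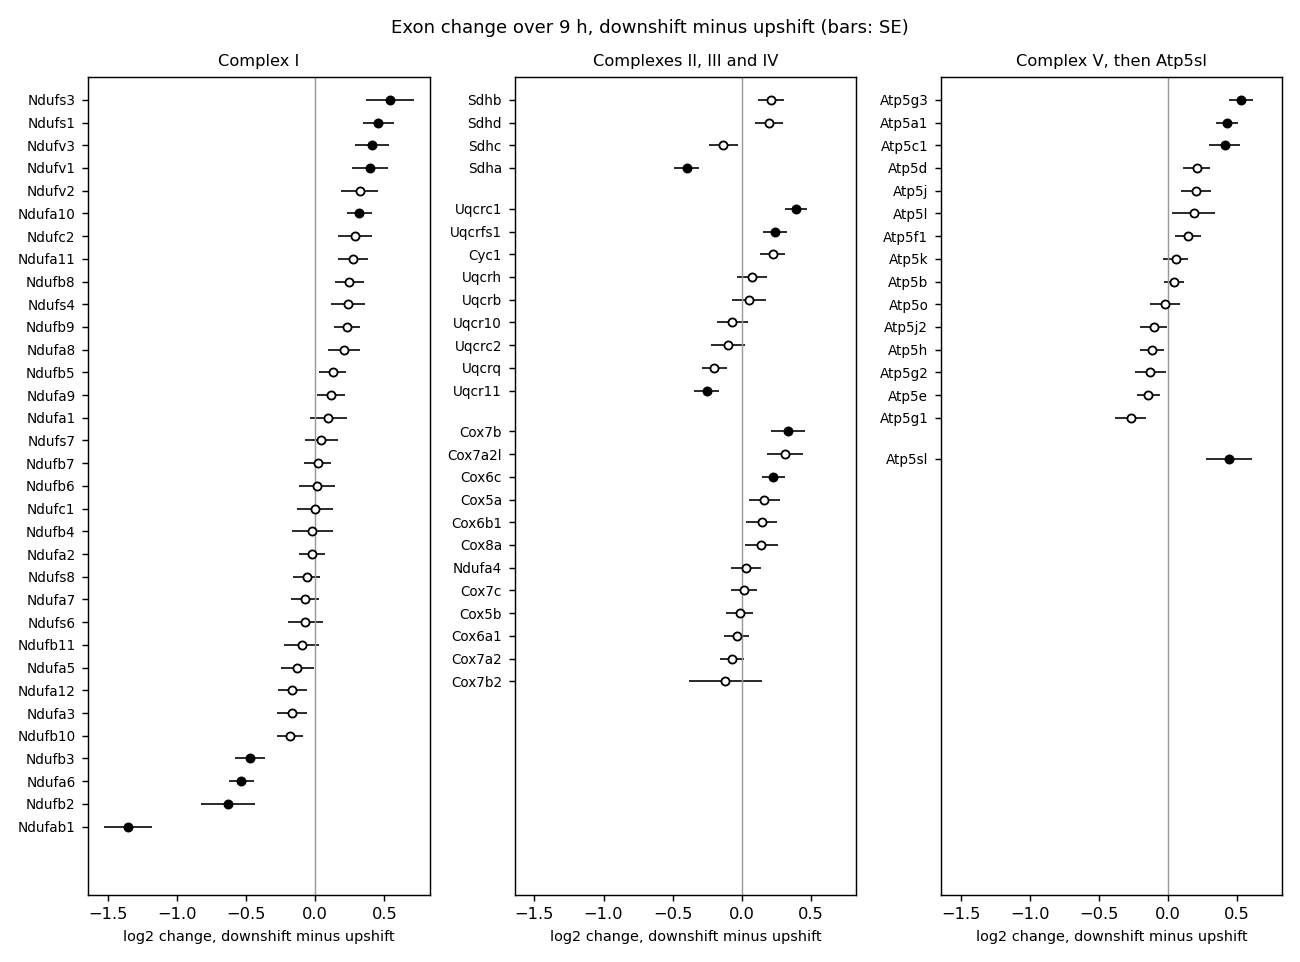
Fitted exon change over 9 h (log2), downshift minus upshift, for the members by complex (1 called member not drawn), with bars of 1 SE and filled points for called members. Ndufab1 at -1.36 stands apart, and the other members drawn lie between -0.63 and 0.54.

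Ndufab1 had the largest change of any member. It codes for the mitochondrial acyl carrier protein, which is both a subunit of complex I and the carrier of growing chains in mitochondrial fatty acid synthesis (GRCm38 chr7:122085403-122101886, minus strand). It had 7.12, 5.41, 5.00, 3.85 and 3.86 RPKM at 0, 1, 3, 6 and 9 h of the downshift, and 3.74, 4.67, 5.39, 5.33 and 5.20 RPKM at those times of the upshift. The downshift values were lowest at 6 and 9 h and the upshift values lowest at 0 h, so the low samples of both courses were those longest at 33 °C. Its level fell after the downshift, by 0.89 on the log2 scale (SE 0.12, adjusted p = 0.00182, edgeR), rose after the upshift, by 0.46 ± 0.13 (adjusted p = 0.02), and the difference was -1.36 ± 0.18 (SE, adjusted p = 0.000307). The difference was -1.42 in series 2 and 5 and -1.35 in series 11 and 13, and was called in all 20 alternatives. The upshift rise alone was not called without the upshift sample at 0 h (0.21) or at 6 h (0.46), in series 2 and 5 (0.45), with time in linear hours (0.35) or as a step (0.49). Its exons share 269 bases with the antisense gene Gm44986, and its 2 pseudogenes together averaged 1.9 reads.

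Ndufa6, an accessory subunit of complex I that binds an acyl carrier protein in the structure of the complex, moved the same way. Its levels were 39.0, 36.1, 35.0, 35.5 and 34.5 RPKM in the downshift and 34.8, 37.4, 41.4, 43.7 and 45.9 RPKM in the upshift. The 3, 6 and 9 h upshift samples were above every downshift sample. In series 2 those at 3 and 6 h (43.8 and 45.3 RPKM) were below the series 5 sample at 0 h (46 RPKM). Ndufa6 rose after the upshift by 0.38 ± 0.064 (adjusted p = 0.00217, edgeR), stood at -0.15 ± 0.064 after the downshift without passing (adjusted p = 0.0921), and had a difference of -0.54 ± 0.091 (SE, adjusted p = 0.00116). The difference kept its call in 19 of 20 alternatives and was -0.39 in series 11 and 13 alone, where it did not pass (adjusted p = 0.0597).

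Ndufb3 and Ndufb2, accessory subunits of the membrane arm of complex I, were also lower. Ndufb3 had 76.6, 70.5, 70.5, 72.2 and 67.7 RPKM in the downshift and 54.6, 58.4, 61.5, 65.8 and 71.3 RPKM in the upshift. Its upshift values increased at each time in the means of 2 columns and in series 2, and the courses overlapped. Series 13 had 54.1 RPKM at 0 h and 53.4 at 1 h. The difference was -0.47 ± 0.11 (SE, adjusted p = 0.0051) by edgeR, and it was not called in series 11 and 13 alone (-0.33) or as a step (-0.38). Ndufb2 had 2.68, 2.25, 2.33, 2.14 and 2.20 RPKM in the downshift and 1.78, 2.20, 2.52, 2.33 and 2.34 RPKM in the upshift, with its lowest sample at 0 h of the upshift and its highest at 0 h of the downshift. In series 2 and 5 Ndufb2 was highest at 3 h of the upshift (3.02 RPKM). Its difference of -0.63 ± 0.20 (SE, adjusted p = 0.023) was not called in series 11 and 13 alone (-0.61) or without the downshift samples at 0 h (-0.47) or 6 h (-0.61) or the upshift sample at 0 h (-0.36). Ndufb2 shares 145 exon bases with Gm42420 on its own strand and 156 with Braf and Gm16272 on the other.

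Sdha, the flavoprotein that oxidises succinate in complex II and in the citrate cycle, was the lower member of complex II. It had 40.8, 42.3, 39.0, 37.6 and 36.6 RPKM in the downshift and 35.7, 39.8, 40.9, 41.4 and 42.7 RPKM in the upshift. In the means of 2 columns the downshift values were highest at 1 h and lowest at 9 h. The upshift values increased at each time in these means and in series 2, and the courses overlapped. Series 11 was highest at 0 h (40.3 RPKM), and series 13 had 39.05 RPKM at 1 h and 38.7 at 3 h. The difference was -0.40 ± 0.092 (SE, adjusted p = 0.00588) by edgeR. It was not called without the upshift sample at 0 h (-0.32) or in series 11 and 13 alone (-0.29). In complex III, the small subunit Uqcr11 had 245, 239.7, 228, 245 and 237 RPKM in the downshift and 201, 212, 227, 239 and 233 RPKM in the upshift, with the 0 and 1 h upshift samples lowest. Its difference of -0.25 ± 0.092 (SE, adjusted p = 0.0444) by edgeR kept its call in 5 of 20 alternatives, with values of -0.37 to -0.18 over them. The call was lost without the downshift samples at 0, 1, 6 or 9 h or the upshift samples at 0, 1, 3 or 6 h (-0.28 to -0.21).

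Of complex I, 6 members were higher, core and accessory subunits among them. The core subunits Ndufs7 (0.045 ± 0.12), Ndufs8 (-0.061 ± 0.097) and Ndufv2 (0.32 ± 0.13) were not called. Ndufs3, a core subunit of the arm that reaches into the matrix, had 17.8, 17.9, 18.4, 18.0 and 20.6 RPKM in the downshift and 24.8, 26.6, 25.6, 21.6 and 19.1 RPKM in the upshift. Upshift samples up to 6 h were above every downshift sample, and the upshift sample at 9 h was among them. In series 13 the sample at 6 h had 17.5 RPKM, below 18.3 RPKM at 9 h in series 11. Ndufs3 fell after the upshift by 0.39 on the log2 scale (SE 0.12, adjusted p = 0.0361, edgeR), stood at 0.15 ± 0.12 after the downshift (adjusted p = 0.361), and had a difference of 0.54 ± 0.17 (SE, adjusted p = 0.0276). It was 0.45 in series 2 and 5 alone, where it did not pass, and 0.62 in series 11 and 13. The call of the difference was lost without the downshift samples at 0 h (0.61) or 9 h (0.42) and without the upshift samples at 1, 6 or 9 h (0.49, 0.54 and 0.38).

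Ndufs1, the core subunit with the most iron-sulfur clusters, had 22.6, 24.7, 26.6, 27.1 and 28.4 RPKM in the downshift and 23.7, 24.8, 22.8, 20.9 and 23.2 RPKM in the upshift. Its downshift values increased at each time, and those at 3, 6 and 9 h were above every upshift sample. The difference was 0.46 ± 0.11 (SE, adjusted p = 0.0082) by edgeR, and 0.41 without the downshift sample at 0 h, where it was not called. Series 2 and 5 alone gave 0.48 and did not pass (adjusted p = 0.0595).

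The other complex I members of this direction included Ndufv1, Ndufv3 and Ndufa10. Ndufv1, which holds the NADH binding site, had 50.0, 53.6, 54.9, 55.1 and 60.0 RPKM in the downshift and 64.7, 68.1, 69.5, 63.3 and 56.7 RPKM in the upshift. Upshift samples up to 6 h were above every downshift sample. In series 13 that at 6 h (50.0 RPKM) was below the series 11 samples at 6 and 9 h (52.1 and 53.4 RPKM). The difference of Ndufv1 was 0.40 ± 0.13 (SE, adjusted p = 0.0293) by edgeR. Ndufv3, an accessory subunit beside it, had 10.4, 10.5, 10.2, 11.2 and 12.1 RPKM in the downshift and 15.1, 15.4, 14.8, 13.7 and 13.1 RPKM in the upshift. These courses did not overlap in the means of 2 columns or in series 11 and 13. In series 2 the sample at 9 h (11.01 RPKM) was below that at 9 h in series 5 (11.84 RPKM). The difference of Ndufv3 was 0.41 ± 0.12 (SE, adjusted p = 0.0212). Ndufa10, an accessory subunit, had 46.6, 47.0, 47.3, 50.8 and 50.6 RPKM in the downshift and 46.8, 48.2, 46.4, 43.2 and 42.2 RPKM in the upshift, where the samples at 6 and 9 h were the lowest of all. In series 2 they had 52.0 and 50.15 RPKM, above 45.4 and 46.4 RPKM at 0 and 1 h in series 5. The difference of Ndufa10 was 0.32 ± 0.092 (SE, adjusted p = 0.0164). Calls were lost without the downshift sample at 0 h (Ndufv1 0.38) or 9 h (Ndufv1 0.35, Ndufv3 0.32), and without the upshift sample at 1 h (Ndufv1 0.38) or 9 h (Ndufv1 0.25, Ndufv3 0.35, Ndufa10 0.29). In series 2 and 5 alone, where none of these members passed, the differences were 0.27 for Ndufv1, 0.42 for Ndufv3 and 0.33 for Ndufa10. In series 11 and 13 alone Ndufv1 passed (0.49, adjusted p = 0.00964), and Ndufv3 (0.40, adjusted p = 0.0747) and Ndufa10 (0.27, adjusted p = 0.107) did not.

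In complex III, Uqcrc1 (GRCm38 chr9:108936633-108949623, plus strand) had 40.4, 41.8, 42.4, 44.8 and 46.3 RPKM in the downshift and 46.1, 46.0, 43.6, 41.2 and 41.1 RPKM in the upshift. In the means of 2 columns the downshift values increased and the upshift values decreased at each time. These courses crossed between 3 and 6 h. No single series kept these orders. Series 5 had 39.1 RPKM at 3 h and 37.8 at 6 h, and series 2 had 44.3 at 0 h and 46.3 at 1 h. In series 5 and 2 the courses did not cross, with at most 43.3 RPKM in the downshift and at least 44.3 RPKM in the upshift. Uqcrc1 rose by 0.20 ± 0.058 after the downshift (adjusted p = 0.0256, edgeR), fell by 0.19 after the upshift (SE 0.058, adjusted p = 0.0276) and had a difference of 0.39 ± 0.082 (SE, adjusted p = 0.00343). In series 2 and 5 alone the upshift change was 0.0079 and the difference 0.28 (adjusted p = 0.14), while the upshift change in series 11 and 13 was -0.39. Without the upshift samples at 0, 1, 6 or 9 h the upshift fall was not called (-0.23, -0.18, -0.18 and -0.21), and the downshift rise was not called without the downshift samples at 0, 1, 6 or 9 h (0.23, 0.20, 0.21 and 0.16). Uqcrfs1, the Rieske iron-sulfur protein that takes electrons from ubiquinol, had 82.1, 82.4, 88.3, 93.2 and 90.5 RPKM in the downshift and 74.3, 75.8, 72.2, 72.7 and 73.3 RPKM in the upshift, with every downshift sample above every upshift sample. Within series 5 and 2 the courses overlapped, with 86.2 to 99.35 RPKM in the downshift and 85.4 to 92.4 RPKM in the upshift. In series 11 and 13 they did not (75.2 to 90.9 and 55.1 to 63.2 RPKM). The Uqcrfs1 difference of 0.24 ± 0.088 (SE, adjusted p = 0.0442) by edgeR kept its call in 4 of 20 alternatives, with values of 0.12 to 0.35. Without any 1 sample other than the upshift sample at 3 h the call was lost (0.22 to 0.28).

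In complex V, Atp5g3, Atp5a1 and Atp5c1 were higher. Atp5g3 (GRCm38 chr2:73908447-73911326, minus strand), the highest of the subunit c genes, had 119.9, 129.5, 133, 143 and 153 RPKM in the downshift and 127, 130, 123, 112 and 113 RPKM in the upshift. The downshift values increased at each time in the means of 2 columns, and those at 3, 6 and 9 h were above every upshift sample. Neither series increased at each time, with 147.3 RPKM at 3 h and 143.2 at 6 h in series 5. Series 11 had 134.9 RPKM at 1 h and 118.8 at 3 h. In series 11 the 3 h sample (118.8 RPKM) was below the series 13 samples at 0 and 1 h (124.2 and 121.1 RPKM). Atp5g3 rose by 0.32 ± 0.062 after the downshift (adjusted p = 0.00565, edgeR), fell by 0.22 after the upshift (SE 0.062, adjusted p = 0.025) and had a difference of 0.53 ± 0.088 (SE, adjusted p = 0.00107). In series 2 and 5 alone the difference was 0.38 and did not pass (adjusted p = 0.0662), and in series 11 and 13 it was 0.70. The upshift change was -0.021 in series 2 and 5 (adjusted p = 0.9) and -0.42 in series 11 and 13 (adjusted p = 0.0167). The downshift change was 0.36 (adjusted p = 0.0337) and 0.28, which did not pass (adjusted p = 0.0749), in these pairs. The downshift rise was not called without the downshift sample at 0 h (0.31), and the upshift fall without the upshift samples at 1, 6 or 9 h (-0.19, -0.18 and -0.23).

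The other genes for subunit c, which code for the same mature protein that forms the rotor ring, were lower in level. Atp5g1 averaged 25.4 RPKM and Atp5g2 26.2, with differences of -0.27 ± 0.11 (adjusted p = 0.0696) and -0.13 ± 0.11 (adjusted p = 0.381), neither of which passed by edgeR. After the upshift alone Atp5g1 rose by 0.23 ± 0.080 (adjusted p = 0.0463), a call that was lost in 13 of 20 alternatives, and the change was -0.0070 in series 11 and 13 alone. It was lost without any 1 downshift sample (0.23 each time) and without the upshift sample at 0, 1 or 6 h (0.13, 0.23 and 0.23). The difference of Atp5g3 from its paralogues was not tested.

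Atp5a1, the alpha subunit of the catalytic head, had 284, 292, 301, 315 and 332 RPKM in the downshift and 307, 316, 302, 275 and 273 RPKM in the upshift. In the means of 2 columns downshift values increased at each time, and upshift values were lower at 6 and 9 h than at 0 to 3 h. The courses overlapped. Neither downshift series increased at each time, with 323.7 RPKM at 3 h and 312.8 at 6 h in series 5. Series 11 had 306.4 RPKM at 0 h and 278.5 at 3 h. In series 2 the 6 h sample (342.8 RPKM) was above that at 0 h (338.8 RPKM). Atp5a1 rose by 0.21 ± 0.058 after the downshift (adjusted p = 0.0196, edgeR), fell by 0.21 after the upshift (SE 0.058, adjusted p = 0.02) and had a difference of 0.43 ± 0.082 (SE, adjusted p = 0.00232). Series 2 and 5 alone gave 0.36 (adjusted p = 0.0739) and series 11 and 13 gave 0.53. The upshift change was -0.026 in series 2 and 5 (adjusted p = 0.876) and -0.44 in series 11 and 13 (adjusted p = 0.00833). The downshift change was 0.33 (adjusted p = 0.0404) and 0.088, which did not pass (adjusted p = 0.527), in these pairs. The downshift rise was not called without the downshift sample at 0, 1 or 9 h (0.25, 0.21 and 0.17), and the upshift fall without the upshift sample at 1, 6 or 9 h (-0.19, -0.19 and -0.20). Atp5c1, the gamma subunit that turns inside that head, had 129.7, 138, 139.9, 145 and 149 RPKM in the downshift and 138, 149, 141, 122 and 126 RPKM in the upshift, lowest at 6 and 9 h of the upshift. In series 2 these samples had 148.3 and 154.1 RPKM, above 125.1 and 140 RPKM at 0 and 1 h in series 5. The difference of Atp5c1 was 0.41 ± 0.11 (SE, adjusted p = 0.0142) by edgeR. It was not called in series 2 and 5 alone (0.47, adjusted p = 0.0705), in series 11 and 13 alone (0.33, adjusted p = 0.0897), without the downshift sample at 0 h (0.38) or as a step (0.27). The beta subunit Atp5b stood at 0.043 ± 0.073 (adjusted p = 0.653).

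In complex IV, Cox7b and Cox6c, small subunits coded in the nucleus, were higher. Cox7b had 145, 151, 155, 166 and 178 RPKM in the downshift and 146, 165, 159, 142 and 148 RPKM in the upshift. Its downshift values increased at each time in the means of 2 columns, and the courses overlapped. Neither series increased at each time, with 197.6 RPKM at 3 h and 189 at 6 h in series 5. Series 11 had 136.5 RPKM at 1 h and 111.5 at 3 h. The difference was 0.34 ± 0.12 (SE, adjusted p = 0.0434) by edgeR and kept its call in 7 of 20 alternatives (0.18 to 0.54). It was lost without any 1 downshift sample or the upshift samples at 1, 6 or 9 h (0.28 to 0.37). Cox6c had 62.3, 63.0, 64.1, 68.7 and 70.8 RPKM in the downshift and 63.0, 64.7, 65.7, 62.2 and 61.8 RPKM in the upshift, with the 6 and 9 h downshift samples above all others. In series 11 Cox6c had 60.7 and 58.65 RPKM in these samples, below series 13 at 0, 1 and 3 h (64.4, 63.6 and 61.9). The difference was 0.23 ± 0.085 (SE, adjusted p = 0.0474) and kept its call in 8 of 20 alternatives (0.073 to 0.35). It was lost without the downshift samples at 0, 1, 6 or 9 h or the upshift samples at 0, 1, 6 or 9 h (0.19 to 0.29).

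Atp5sl had 4.60, 4.52, 4.75, 5.23 and 4.89 RPKM in the downshift and 3.91, 3.56, 3.21, 3.104 and 3.34 RPKM in the upshift. Every downshift sample was above every upshift sample. Its difference of 0.44 ± 0.16 (SE, adjusted p = 0.0498) by edgeR kept its call in 8 of 20 alternatives, with values of 0.12 to 0.62. It was lost without any 1 downshift sample or the upshift samples at 0, 1 or 6 h (0.30 to 0.498).

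**Figure D3:**
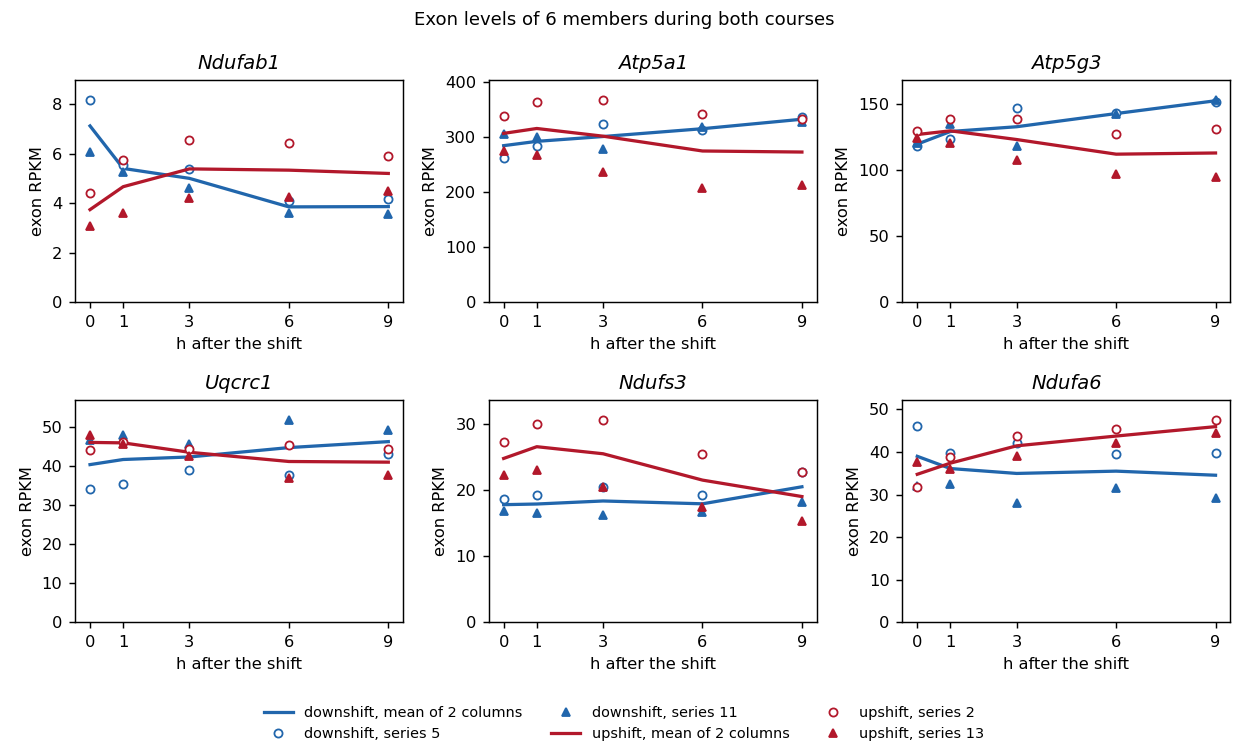
Exon RPKM against hours after the shift for 6 members, with lines for the mean of the 2 columns of a sample (downshift blue, upshift red), open circles for series 5 or 2 and triangles for series 11 or 13. The lines of Ndufab1 and Ndufa6 run down in the downshift and up in the upshift, and those of Atp5a1, Atp5g3 and Uqcrc1 run the other way.

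Promoters of Uqcrc1, Atp5g3 and Ndufab1, 3 of the 4 members called in both shifts, and of Sdha are shown with their matches to motifs of factors known for these genes. NRF1 (GCGCA and GCGC parted by any base), ETS factors such as GABPA (CCGGAAG), YY1 (AANATGGCG), SP1 (GGGCGG) and the heat shock factor HSF1 (GAA, TTC and GAA, each parted by any 2 bases) were searched on both strands of RefSeq promoters (GRCm38.p6, 250 bases before to 50 after the start). Uqcrc1 and Atp5g3 were higher, Ndufab1 and Sdha lower, and the set was chosen after the values were seen. The promoter of Atp5a1, the other member called in both shifts, is not shown. Capitals mark matches to the NRF1, ETS or YY1 motif. The intervals are chr9:108936398-108936697 (plus strand) for Uqcrc1, chr2:73911277-73911576 (minus) for Atp5g3, chr7:122101799-122102098 (minus) for Ndufab1 and chr13:74350191-74350490 (minus) for Sdha.
Uqcrc1: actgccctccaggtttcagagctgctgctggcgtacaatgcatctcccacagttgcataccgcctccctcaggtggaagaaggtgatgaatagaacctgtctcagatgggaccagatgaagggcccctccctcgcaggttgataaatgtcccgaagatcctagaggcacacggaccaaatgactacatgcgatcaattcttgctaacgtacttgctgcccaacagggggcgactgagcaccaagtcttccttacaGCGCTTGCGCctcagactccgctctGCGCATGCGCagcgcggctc
Atp5g3: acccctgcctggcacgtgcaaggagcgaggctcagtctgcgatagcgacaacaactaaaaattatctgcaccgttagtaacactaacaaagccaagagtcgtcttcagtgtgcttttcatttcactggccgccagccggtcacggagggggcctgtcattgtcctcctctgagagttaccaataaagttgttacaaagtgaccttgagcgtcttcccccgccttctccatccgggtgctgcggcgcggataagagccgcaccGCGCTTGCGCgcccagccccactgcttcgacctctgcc
Ndufab1: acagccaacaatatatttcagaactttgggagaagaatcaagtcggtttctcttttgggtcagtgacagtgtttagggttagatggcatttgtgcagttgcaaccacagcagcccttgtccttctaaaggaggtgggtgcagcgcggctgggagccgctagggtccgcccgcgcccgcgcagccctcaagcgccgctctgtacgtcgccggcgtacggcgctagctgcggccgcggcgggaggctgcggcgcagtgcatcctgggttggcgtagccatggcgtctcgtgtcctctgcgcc
Sdha: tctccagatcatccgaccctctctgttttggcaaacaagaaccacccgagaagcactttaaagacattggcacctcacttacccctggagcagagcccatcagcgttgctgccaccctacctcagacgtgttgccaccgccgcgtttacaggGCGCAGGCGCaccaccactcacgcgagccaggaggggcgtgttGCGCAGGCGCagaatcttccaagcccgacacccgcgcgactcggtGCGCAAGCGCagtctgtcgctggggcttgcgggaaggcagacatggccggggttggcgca

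Uqcrc1 has 2 NRF1 matches, Atp5g3 has 1 and Sdha has 3, while Ndufab1 has none of the marked motifs in this window. Promoters of 63 members were found in the RefSeq table. NRF1 was matched in 16 of them (25.4%), against 12.9% of 7721 tested genes with a promoter and 5.19% of all 27025 genes in the table. YY1 was matched in 17.5%, against 7.01% and 2.76%, and the ETS motif in 25.4%, against 22.7% and 9.93%. SP1 was matched in 39.7%, against 72.4% and 38.2%, and HSF1 in 0 of 63, against 0.57% and 0.662%. Matches of different motifs overlapped in 1 member. Of the members with a promoter, an NRF1, ETS or YY1 match was present in 5 of 10 called higher, in 3 of 6 called lower and in 29 of 47 not called.

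In single shifts, 8 members rose and 1 fell after the downshift (12%, against 32% of all genes tested, of which 16.1% rose and 15.9% fell). Ndufab1 was the member that fell. The largest rise was that of Cox7a2l, a factor that joins complexes III and IV into supercomplexes, with 0.37 ± 0.092 (SE, adjusted p = 0.0141) by edgeR, although reads of its pseudogene cannot be told apart with certainty. Its levels were 55.5, 55.0, 59.4, 70.4 and 68.4 RPKM in the downshift, with the highest values at 6 and 9 h, and 50.8, 55.4, 53.0, 50.9 and 56.1 RPKM in the upshift. Atp5g3, Ndufs1, Cox7b (0.27), Atp5a1, Uqcrc1, Uqcrfs1 (0.19) and Cox6c (0.19) were the others that rose. Each of the 8 rises lost its call without at least 1 sample. Without the downshift sample at 9 h these included Cox7a2l (0.39), Ndufs1 (0.32), Cox7b (0.22), Cox6c (0.15) and Uqcrfs1 (0.22), and without that at 0 h they included Ndufs1 (0.28), Cox7b (0.31), Cox6c (0.24) and Uqcrfs1 (0.23). The median change of the members was 0.093, against 0.0077 for all genes tested. The number called higher was 1 without the downshift sample at 0 h, 3 without that at 1 h, 3 without that at 6 h and 1 without that at 9 h, where 15.7% to 21.5% of all genes tested were called.

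After the upshift 8 members rose and 4 fell (16%, against 33.1% of all genes tested, of which 14.9% rose and 18.2% fell). The rising members were Ndufab1, Ndufa6, Ndufb3 (0.35), Sdha (0.21), Atp5g1, Uqcr11 (0.23), Uqcrq (0.20) and Ndufa12 (0.25), and Ndufs3, Atp5a1, Atp5g3 and Uqcrc1 fell. The rise of Ndufa6 kept its call without any 1 sample. The rise of Ndufb3 was lost without the upshift sample at 9 h (0.28), that of Sdha without the upshift samples at 0, 6 or 9 h (0.14, 0.23 and 0.22) or the downshift sample at 6 h, that of Uqcr11 without the upshift samples at 0, 1 or 6 h (0.22, 0.22 and 0.20), and the fall of Ndufs3 without the upshift samples at 1, 6 or 9 h (-0.34, -0.39 and -0.23) or the downshift sample at 1 h. Without the downshift sample at 6 h or the upshift samples at 0, 1, 6 or 9 h, 5, 2, 4, 3 and 5 members were called higher, and without the upshift samples at 1, 6 or 9 h, 0, 0 and 1 were called lower. In these fits 18.5% to 28.7% of all genes tested were called. The split also depended on the column series. In series 2 and 5 alone 20 members were called higher and 0 lower, against 29.3% of all genes tested (1489 higher and 1437 lower). In series 11 and 13 alone 1 was called higher and 12 lower, against 22.6% (999 higher and 1319 lower).

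The shared change, the mean of both shifts, was called in 0 members by edgeR and limma and in 3 (higher) by DESeq2. Of all genes tested, 3.32% were called by edgeR (1.29% higher and 2.04% lower), 3.107% by limma and 8.65% by DESeq2. At an unadjusted p under 0.05 it had 8 members higher and 1 lower by edgeR (12%, against 19.5% of all genes), 12 and 1 by DESeq2 (17.3%, against 20.7%) and 14 and 1 by limma (20%, against 19.6%).

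The median course of the members differed between column series. After the upshift the fitted median change was 0.22 in series 2 and -0.13 in series 13, and 25 of 75 members had the same sign in both. After the downshift it was 0.15 in series 5 and 0.017 in series 11, with the same sign in 52 of 75. Medians of all genes tested in single samples lay between -0.038 and 0.021 in each series. What the series share with this split was not tested. The difference between the shifts had a median of -0.067 in series 2 and 5 and 0.18 in series 11 and 13, with the same sign in 50 members.

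**Figure D4:**
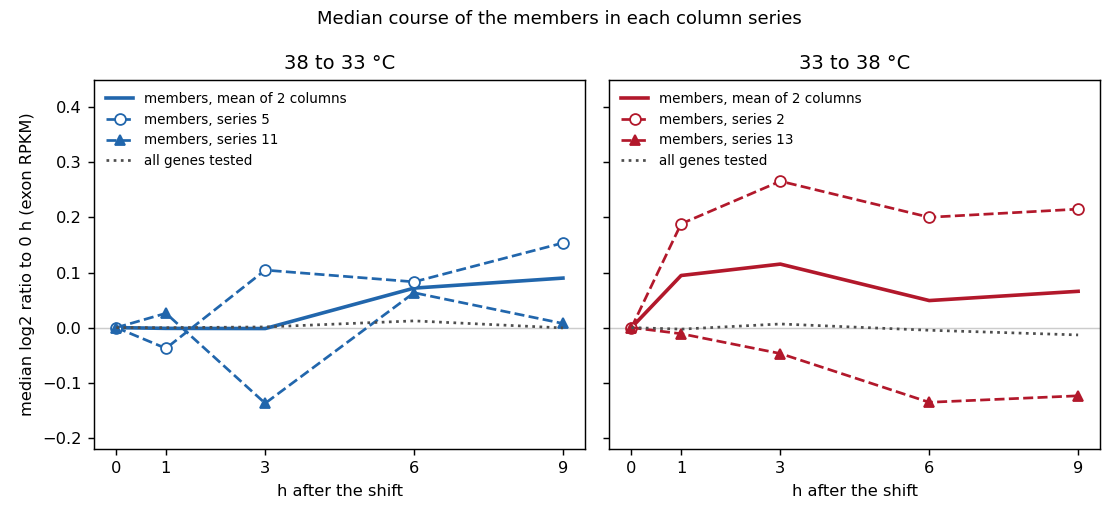
Median log2 ratio of the members to 0 h (exon RPKM) against hours after the shift, downshift left and upshift right, for each column series (circles and triangles), for the mean of both columns (solid) and for all genes tested (dotted). The upshift medians of series 2 (0.22 at 9 h) and series 13 (-0.12 at 9 h) lie on opposite sides of 0.

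Levels at 33 °C were also set against levels at 38 °C, with 1 sample on each side and no test. Each column series lies in 1 course, so temperature and series cannot be told apart in this comparison. After 16 h, 3 members were at least 25% higher at 33 °C and 12 at least 20% lower than at 38 °C, against 24.3% and 19.3% of all genes tested, and the members' median log2 ratio was -0.13, against 0.029 for all genes tested. In both pairs of series 3 members were past these limits on the higher side and 4 on the lower. Ndufv3, Ndufs3 and Ndufv1 were higher at 33 °C, by 1.45-fold, 1.39-fold and 1.30-fold. Ndufab1 had 3.74 RPKM after 16 h at 33 °C, against 7.12 RPKM after 16 h at 38 °C. After 9 h, 5 members were higher and 3 lower, against 13.8% and 19.3% of all genes tested, with a median of 0.12, against -0.023 for all genes tested. Atp5sl (1.47-fold) and Cox8a (1.27-fold) were past the limit in both pairs of series among the higher members, and Ndufab1, with 3.86 RPKM after 9 h at 33 °C against 5.20 RPKM after 9 h at 38 °C, among the lower.

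Intron reads, which come largely from precursor RNA, were compared to ask whether exon changes went with changes of the precursor. Members had more exon reads per intron read (median 5.61) than all 9349 genes tested on introns (1.68). The intron change, downshift minus upshift, was called in 4 members (3 higher, 1 lower), 5.33% of them, against 7.74% of all genes tested (4.68% higher and 3.06% lower). Atp5a1 was higher by 0.55 ± 0.12 (SE, adjusted p = 0.0238) in edgeR, in the same direction as on exons. Its intron reads were 57.7, 60.9, 63.7, 62.0 and 67.9 CPM (reads scaled by exon library size) in the downshift and 56.1, 56.2, 55.7, 52.7 and 56.6 CPM in the upshift, with every downshift sample above every upshift sample. Atp5sl (1.498 ± 0.39, adjusted p = 0.0462) and Ndufc1 (1.098 ± 0.29, adjusted p = 0.0458), a small subunit of complex I with no exon difference called (-0.0011 ± 0.13), were the other higher members. The exon value of Ndufc1 carries the uncertainty of the stretches it shares with the genes given above. Ndufc1 had 5.08, 5.33, 4.88, 7.24 and 6.79 intron CPM in the downshift and 5.30, 4.396, 4.64, 4.396 and 4.17 intron CPM in the upshift, highest at 6 and 9 h of the downshift. Atp5sl had 2.26, 3.46, 3.71, 3.29 and 3.40 intron CPM in the downshift and 2.78, 1.63, 1.70, 1.54 and 1.57 intron CPM in the upshift, with the 0 h sample the lowest of the downshift and the highest of the upshift. Cox7b2, a paralogue of Cox7b, was the lower member, with -0.88 ± 0.23 (SE, adjusted p = 0.0465) in edgeR. Its exon level was far lower in series 11 and 13 than in series 2 and 5.

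In series 2 and 5 alone and in series 11 and 13 alone, the intron changes of Atp5a1, Atp5sl and Ndufc1 were not called. That of Cox7b2 was not called in series 2 and 5 alone. Without the downshift sample at 0, 6 or 9 h the numbers of members called higher were 1, 0 and 0, and without the upshift sample at 0, 1, 3, 6 or 9 h they were 0, 5, 1, 0 and 1. In these fits 2.32% to 11.7% of all genes tested were called. In the fits without 1 sample that lost the call, values were 0.51 to 0.59 for Atp5a1, 0.86 to 1.75 for Atp5sl, 0.92 to 1.31 for Ndufc1 and -1.04 to -0.53 for Cox7b2.

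The ratio of exon to intron reads was tested for the same contrast. It was called in 9 members, 8 higher and 1 lower (12%), against 17.8% of all genes tested (15.9% higher and 1.89% lower). The median gene itself moved by 0.28 on the log2 scale and the median member by 0.23, so values are also given relative to 0.28.

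Cox6c (GRCm38 chr15:35925886-35938246, minus strand) had the largest change of this ratio. It had 5.48, 8.20, 8.62, 9.78 and 10.5 exon reads per intron read in the downshift and 11.1, 7.31, 7.51, 6.59 and 6.15 in the upshift. The ratio was lowest at 0 h in the downshift and highest at 0 h in the upshift. The difference was 1.59 ± 0.28 (SE, adjusted p = 0.00173) by edgeR, or 1.31 above the median gene, with 1.59 in series 2 and 5 and 1.56 in series 11 and 13, and was called in all 19 alternatives. The change was 0.87 ± 0.20 after the downshift (adjusted p = 0.0269) and -0.73 ± 0.20 after the upshift (adjusted p = 0.0468). Its intron reads were 40.5, 27.4, 26.5, 25.1 and 24.1 CPM in the downshift and 20.2, 31.6, 31.2, 33.7 and 35.8 CPM in the upshift, highest in the sample longest at 38 °C and lowest in that longest at 33 °C. The intron difference was -1.02 ± 0.28 and did not pass (adjusted p = 0.0552), while exon levels stayed between 61.8 and 70.8 RPKM. Exons of Cox6c share 250 bases with Vps13b on the other strand.

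Ndufab1 was the lower member. It had 2.12, 1.79, 1.82, 1.27 and 1.41 exon reads per intron read in the downshift and 1.34, 1.68, 1.83, 1.82 and 1.85 in the upshift, a difference of -1.06 ± 0.24 (SE, adjusted p = 0.00764) by edgeR, or -1.34 from the median gene. Its intron reads stayed between 18.9 and 23.2 CPM in the downshift and between 19.1 and 20.2 CPM in the upshift, with a difference of 0.040 ± 0.19 (adjusted p = 0.912). The ratio call was lost without the upshift sample at 0 h (-0.83), with time in linear hours (-0.94) and as a step (-0.92).

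The other higher members were Cox7b2 (1.12 ± 0.35), Ndufa7 (0.78 ± 0.23), Ndufs4 (0.73 ± 0.18), Ndufc2 (0.69 ± 0.20), Cox8a (0.66 ± 0.18), Atp5f1 (0.53 ± 0.15) and Ndufs1 (0.51 ± 0.16), with adjusted p of 0.00994 to 0.0374 in edgeR. Ndufs4, an accessory subunit of the matrix arm, had 0.426, 0.453, 0.505, 0.559 and 0.523 exon reads per intron read in the downshift and 0.547, 0.531, 0.512, 0.420 and 0.464 in the upshift. Its ratio was lost as a call without the downshift sample at 0 h (0.71). Ndufa7, another accessory subunit, had 3.1, 3.41, 4.08, 4.73 and 3.69 in the downshift and 3.86, 3.98, 3.37, 3.29 and 3.17 in the upshift, and Ndufc2, of the membrane arm, 4.26, 5.36, 4.84, 5.82 and 6.02 in the downshift and 6.03, 5.30, 5.08, 5.33 and 4.82 in the upshift. All of these courses overlapped. Relative to the median gene these members stood 0.23 (Ndufs1) to 0.84 (Cox7b2) higher, and none but Cox7b2, in series 11 and 13, passed within a pair of series. Cox7b2 was measured unequally, with 23.2, 22.7, 31.6, 29.0 and 26.1 RPKM in series 5 of the downshift, against 0.740, 1.128, 1.41, 1.60 and 1.52 in series 11. Leaving out 1 sample left 2 to 8 members called higher. There were 4 without the downshift sample at 0 or 1 h, 2 without that at 6 h, 5 without that at 9 h, 4 without the upshift sample at 0 h, and 3 without that at 6 or 9 h. Fits without 1 sample called 9.09% to 17.2% of all genes tested.

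**Figure D5:**
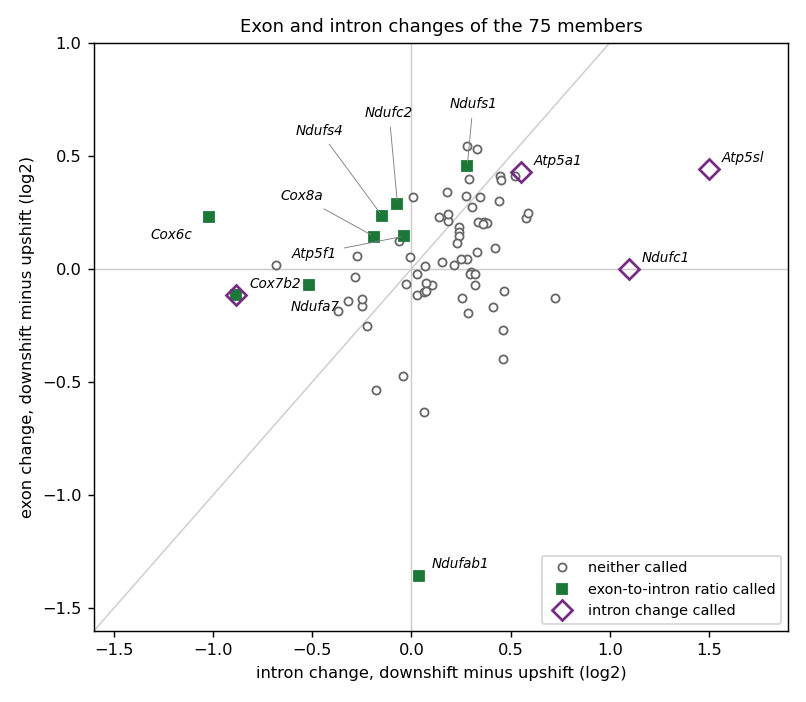
Exon change against intron change (log2, downshift minus upshift) of the 75 members, with green squares where the exon-to-intron ratio was called, purple diamonds where the intron change was called, and a diagonal of equal change. Cox6c lies far left with little exon change, Ndufab1 far down with an intron change near 0, and Atp5a1 near the diagonal.

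Genes that work with the complexes were listed with earlier results of these data known, and their exon differences are read against the same 24.8% higher and 22.1% lower. Calls of these listed genes were not examined within pairs of series or without single samples. Of 45 assembly factors 32 were in the tables and 29 tested, with 3 higher and 5 lower. The lower ones were the complex I assembly factors Timmdc1 (-2.02 ± 0.27, adjusted p = 0.000332), Ndufaf1 (-1.65 ± 0.19, adjusted p = 0.000193), Tmem126b (-1.24 ± 0.21, adjusted p = 0.00106) and Ndufaf4 (-0.61 ± 0.21, adjusted p = 0.0336) and the complex III assembly factor Bcs1l (-1.33 ± 0.20, adjusted p = 0.0006) in edgeR. The higher ones were Foxred1 (0.97 ± 0.14) and Acad9 (0.31 ± 0.10) for complex I and Sdhaf1 (0.79 ± 0.16) for complex II. Timmdc1, Ndufaf1, Tmem126b and Acad9 act together in building the membrane arm, and Acad9 had the opposite sign to the others, with Ecsit of the same group at -0.19 ± 0.11 (adjusted p = 0.169).

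Of 12 tested genes for the mobile carriers cytochrome c and ubiquinone, 2 were higher and 3 lower in edgeR. Coq4 (-0.99 ± 0.16), Coq5 (-0.71 ± 0.11) and Cycs, which codes for cytochrome c (-0.66 ± 0.099), were lower, and Coq7 (0.84 ± 0.15) and Pdss1 (0.65 ± 0.17), which also act in making ubiquinone, were higher. Of 10 tested regulators of mitochondrial gene expression, 1 was higher, the mitochondrial transcription factor Tfb2m (1.81 ± 0.24, adjusted p = 0.000356), and 3 were lower, Yy1 (-0.84 ± 0.12), Polrmt (-0.59 ± 0.15) and Gabpa (-0.57 ± 0.15). Tfb2m was near the filter of 1 RPKM, with 0.975 to 1.92 RPKM over the samples. Nrf1 stood at -0.14 ± 0.15 (adjusted p = 0.49, edgeR). Of 14 citrate cycle genes 6 were higher, namely Dlst (0.85 ± 0.092), Suclg2 (0.84 ± 0.18), Suclg1 (0.66 ± 0.12), Idh3g (0.55 ± 0.10), Sucla2 (0.47 ± 0.11) and Idh2 (0.47 ± 0.11), and the other 8 lay between -0.12 and 0.19, with a median of 0.18 over the list. Atpif1, the inhibitor of ATP synthase, was higher by 0.37 ± 0.10 (adjusted p = 0.0122).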

How the data were processed

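Total RNA of NIH3T3 cells was, per the labels' protocols, DNase-treated and depleted of ribosomal RNA before strand-specific paired-end sequencing. STAR, bedtools and the mm10 genome are named in the submitters' processing notes. No source used here gives the annotation release, the counting rule or the use of strand. The deposited values are estimated counts of exon and intron reads per gene, although the tables are titled RPKM: 22.9% of exon values above 0 are whole (within 1e-06) and columns sum to 22403625 to 48004854 exon reads. They were rounded. The members and lists were chosen with earlier results of these data known.

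Each sample entered as the sum of its 2 complete columns, and the fit carried an offset for each gene that corrects for how much each column series adds to the sum. Genes needed a mean of at least 1 exon RPKM (10171 genes), and at least 0.05 intron RPKM where introns enter (9349 genes). Counts were scaled by TMM and tested with the edgeR 4.0.16 quasi-likelihood test (R 4.3.3), with 1 line per course on log2(h + 1). A change is the slope over 0 to 9 h, and its SE is the change over the root of the F statistic. The exon-to-intron ratio change is the exon slope minus the intron slope in 1 fit over both kinds of read. RPKM used exon lengths of GENCODE M21 (GRCm38), in which 36308 genes (95.3%) were found. Genes with a near-identical stretch were sought with blastn 2.17.0. The fit was tested on simulated data. Alternatives were DESeq2 1.42.0, limma 3.58.1 on log2(RPKM + 0.1), other size factors, no filter, linear or step time, each pair of series alone, the added series 10, and each sample left out. Members named are those called for the exon difference, the highest and lowest of each complex, the largest called intron and ratio changes, isoform families and members called in both shifts. The values of 1 called member are not reported here, though it is in the counts. Members named for an upshift or downshift call alone, and the promoters, were chosen after their values were seen.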

Additional observations from a re-analysis of the deposited data

Results flagged for a closer look

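In 4 members the change differed between the courses by the test of the difference, and each course alone was called in the opposite direction. The difference, downshift minus upshift, was -1.36 on the log2 scale for Ndufab1, 0.53 for Atp5g3, 0.43 for Atp5a1 and 0.39 for Uqcrc1 (edgeR quasi-likelihood test, adjusted p = 0.000307, 0.00107, 0.00232 and 0.00343). In series 2 and 5 alone the upshift change was -0.026 for Atp5a1, -0.0215 for Atp5g3 and 0.0079 for Uqcrc1. The differences of these members were not called there, while that of Ndufab1 was called in both pairs of series. Groups of 4 or more samples do not exist here, so no sample was examined as an outlier of its group.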

How the results depend on the processing

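No paired analysis was possible because each time of each course has 1 sample. Counts of called members moved as follows, beside 14 higher and 6 lower for the difference, 8 and 1 after the downshift, 8 and 4 after the upshift, 0 for the shared change, 3 and 1 for introns and 8 and 1 for the ratio. In series 2 and 5 alone the difference called 0 higher, the downshift 5 higher, the upshift 20 higher and 0 lower (26.7%, against 29.3% of all genes tested), the shared change 1 higher, introns 1 higher and the ratio 1 higher. In series 11 and 13 alone the difference called 1 lower, the downshift 1 higher, the upshift 1 higher and 12 lower (against 22.6%), introns 0 higher and the ratio 2 higher. The step called 0 higher and 3 lower for the difference, 0 higher for the downshift, 0 higher and 0 lower for the upshift, 6 higher and 3 lower for introns and 5 higher for the ratio. Linear hours called 2 higher and 8 lower for the upshift, 0 higher and 0 lower for introns and 5 higher for the ratio. DESeq2 called 2 lower for the downshift, 7 lower for the upshift and 3 higher for the shared change, and limma 2 lower for the downshift. Without a filter the upshift called 5 higher and introns 2 lower. Sums without the series offset, chosen after seeing the data as was the sample as a block in the ratio fit, called 13 higher for the upshift, 1 higher for the shared change and 0 lower for introns. Leaving out 1 sample gave 5 to 15 higher and 3 to 7 lower for the difference, 1 to 9 and 1 to 2 after the downshift, 2 to 8 and 0 to 5 after the upshift, 0 to 5 and 0 to 2 for introns and 2 to 8 and 0 to 2 for the ratio. Of 3686 recomputed values of 38 named members, 3274 kept direction and side of the threshold, 331 lost and 79 gained a call, and 2 turned, both after the upshift, Atp5g1 to -0.0070 in series 11 and 13 and Uqcrc1 to 0.0079 in series 2 and 5. The causes were not tested.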
